A study of Rattus norvegicus with 6 samples.

Results

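Interferon receptors, the Janus kinases bound to them, and the STAT and IRF factors they act through were followed as 9 genes: Ifnar1, Ifnar2, Ifngr1, Jak1, Tyk2, Stat2, Irf1, Irf7 and Irf9. They were taken by gene symbol from the deposited table of read counts, where they are 9 of 18718 rows, each with 1 row of its own. The cells were HEI-OC1, an immortalised auditory line from the organ of Corti. The siHNRNPD libraries (3) came from cells treated with an siRNA against Hnrnpd, the gene of the RNA-binding protein AUF1. The siNC libraries (3) came from cells given a control siRNA. Both groups were the same line in the same serum-containing medium, and no interferon or other agent is named for either. The labels do not say whether replicates were separate cultures, so the spread behind the p-values may be technical. HEI-OC1 is usually described as a mouse line, while the labels give rat, and the species of the reads was left untested here. How well the reads of each gene aligned to the rat build was not tested either, which limits what low levels and orders between genes can show.

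Type I interferons bind a receptor of an Ifnar1 and an Ifnar2 chain, and interferon gamma binds one built from Ifngr1 and Ifngr2. The kinases Tyk2 and Jak1 sit on the inner side of these chains and phosphorylate STAT proteins. Stat2 and Irf9 are subunits of ISGF3, which binds interferon-stimulated response elements, while STAT pairs bind gamma-activated sites. Stat2, Irf1, Irf7 and Irf9 are themselves known as interferon-induced genes, so the pathway can raise its own transcription factors, whereas the receptor chains and kinases are made largely without interferon.

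The libraries held 28984535 to 35842904 gene counts, and all 9 genes passed the filter on low counts. Hnrnpd (row Hnrpd, ENSRNOG00000002292) had 177, 200.2 and 183 CPM (counts scaled to a common library size) in siHNRNPD 1 to 3, against 319, 303 and 269 CPM in siNC 1 to 3. The siRNA target was about as low in siHNRNPD 3 as in siHNRNPD 1 and 2. Its log2 change was -0.67 (edgeR quasi-likelihood test, adjusted p = 0.0426). That call held without siHNRNPD 2 and was lost without any other library, with adjusted p of 0.0508 to 0.319. Of 9 hair cell markers 7 had a row, and apart from Myo6, which had 31.5 to 41.2 CPM, they stayed low. Myo7a, a hair cell myosin, had 0.18 to 0.55 CPM in the siHNRNPD libraries and 0.064 to 0.44 CPM in the siNC libraries. The leukocyte marker Ptprc had at most 1 count in a library.

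The library siHNRNPD 3 stood apart from the other 5 in interferon-related genes, so each result that rests on it is given with and without it. The 5 receptor and kinase genes had close to the same levels in all 6 libraries. The 4 transcription factor genes had fitted log2 changes of -0.76 to -0.46, and siHNRNPD 3 was the lowest library for each of them. Every siHNRNPD library lay below every siNC library for Stat2 and Irf1 only. The groups overlapped for Irf7 and Irf9, whose log2 changes were -0.29 and -0.16 without siHNRNPD 3. Relative to the siNC mean, siHNRNPD 3 held 12.9% of Irf7, 30.6% of Irf9, 47.9% of Stat2 and 63.5% of Irf1. In bulk RNA, fewer cells expressing a gene and less RNA per cell cannot be told apart. By edgeR 0 of the 9 genes were called at an adjusted p under 0.05, against 0.0815% of the 12268 genes tested, and 0 were called without siHNRNPD 3, against 0.113% of all genes. At an unadjusted p under 0.05, 2 of the 9 (Irf1 and Stat2) were lower, against 5.2% of all genes. DESeq2 called the same 2 lower, against 0.934% of the genes it adjusted, and edgeR with no filter on low counts also called them, against 0.54% of all rows.

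**Figure D1:**
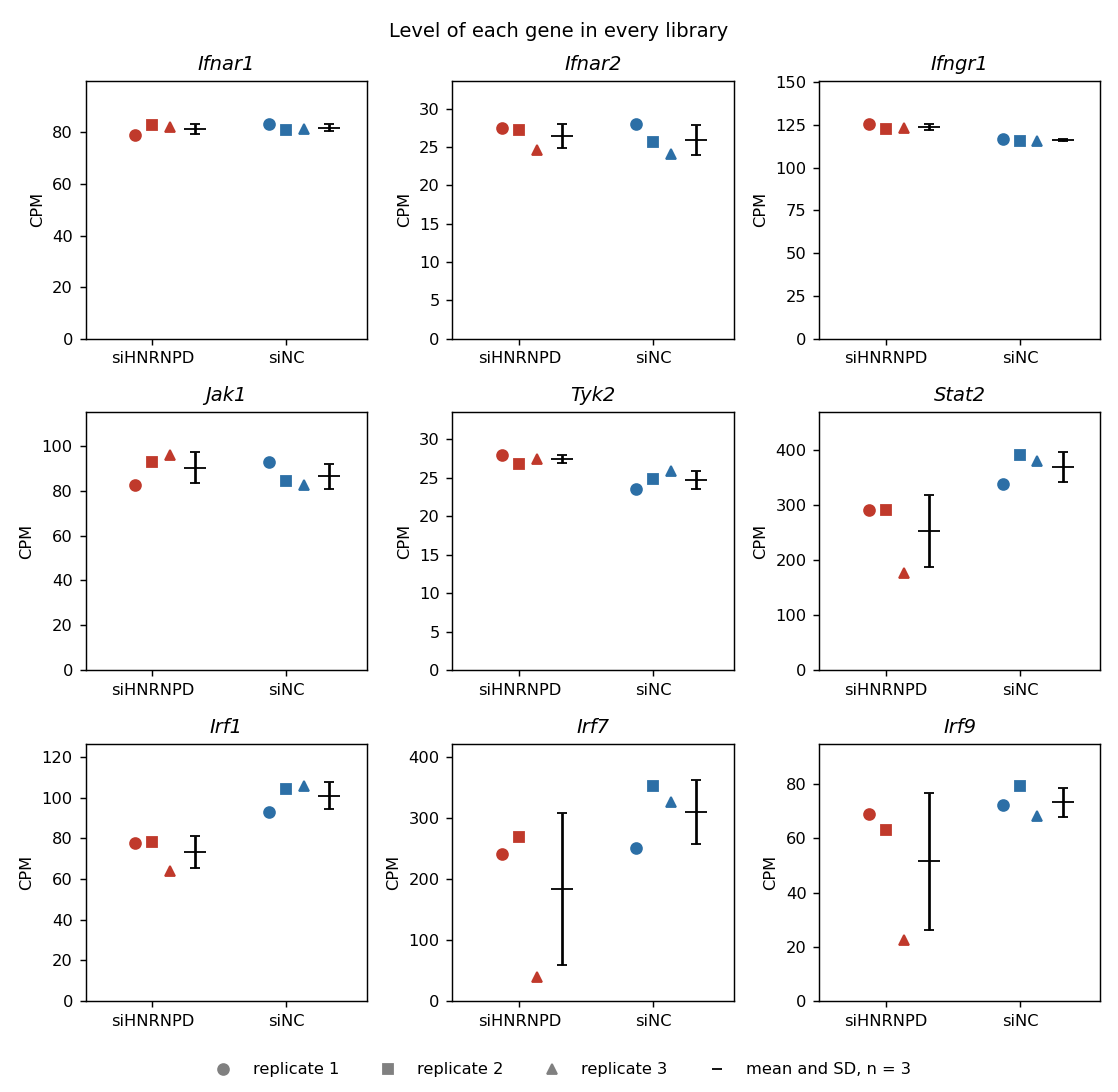
CPM (vertical axes, from 0) of each of the 9 genes in the siHNRNPD libraries (red) and siNC libraries (blue); symbols mark the replicate number, and the black mark and bar are the mean and SD (n = 3). The receptor and kinase genes lie level across libraries, while siHNRNPD 3 is the lowest point for Stat2, Irf1, Irf7 and Irf9, at 40.1 CPM for Irf7.

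The receptor chains were examined first, since they decide which interferons a cell can bind. Ifnar1 (ENSRNOG00000028594, chromosome 11), the chain that carries Tyk2, had 79.0, 82.8 and 81.9 CPM in siHNRNPD 1 to 3, against 83.2, 81.0 and 81.4 CPM in siNC 1 to 3. The groups overlapped. Its log2 change was -0.010, with an approximate 95% interval of -0.15 to 0.13. Ifnar2 (ENSRNOG00000045668, chromosome 11), the chain that carries Jak1 and binds type I interferon most tightly, had 27.5, 27.3 and 24.6 CPM in siHNRNPD 1 to 3, against 28.0, 25.6 and 24.1 CPM in siNC 1 to 3. These overlapped too, and the interval of the log2 change ran from -0.16 to 0.22. In the RefSeq table of the rat assembly GRCr8, Ifnar2, Il10rb, Ifnar1 and Ifngr2 lie next to each other in this order.

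Ifngr1 (ENSRNOG00000012074, chromosome 1), the chain that binds interferon gamma, had 126, 123 and 123 CPM in siHNRNPD 1 to 3, against 117, 116 and 116 CPM in siNC 1 to 3. The lowest siHNRNPD library lay above the highest siNC library. The log2 value was small at 0.090 with an SE of 0.059 and did not pass (edgeR adjusted p = 0.598). The approximate 95% interval ran from -0.041 to 0.22.

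Among the kinases, Jak1 (ENSRNOG00000011157, chromosome 5), which serves both the type I and the gamma receptor, had 82.5, 92.7 and 95.8 CPM in siHNRNPD 1 to 3, against 92.9, 84.3 and 82.3 CPM in siNC 1 to 3. The groups overlapped, with an interval of -0.12 to 0.24 for the log2 change. Tyk2 (ENSRNOG00000032948, chromosome 8), the kinase of the Ifnar1 chain, had 27.9, 26.9 and 27.5 CPM in siHNRNPD 1 to 3, against 23.5, 24.8 and 25.9 CPM in siNC 1 to 3. All siHNRNPD libraries lay above all siNC libraries. Its log2 value of 0.15 (SE 0.073) did not pass (edgeR adjusted p = 0.495). Groups that do not overlap with siHNRNPD higher were seen in 2 of the 9 genes, Ifngr1 and Tyk2, against 8.42% of all genes tested. Leaving out 1 library at a time gave log2 values of 0.080 to 0.097 for Ifngr1 and 0.10 to 0.18 for Tyk2.

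The promoters of the 4 transcription factor genes are shown because these genes were lower together in siHNRNPD 3. The 250 bases before each gene's annotated start were read from RefSeq, build GRCr8, and are rat sequence. They were searched on both strands for GAAANNGAA, letters of the interferon-stimulated response element, and for TTCNNNGAA, the core of the gamma-activated site, which reads the same on both strands. Capitals mark the matches, and Stat2 has none.
Stat2: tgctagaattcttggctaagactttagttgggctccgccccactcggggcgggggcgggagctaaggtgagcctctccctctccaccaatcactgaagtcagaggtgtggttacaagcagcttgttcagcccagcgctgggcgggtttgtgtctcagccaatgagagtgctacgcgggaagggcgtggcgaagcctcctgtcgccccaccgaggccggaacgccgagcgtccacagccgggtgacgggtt
Irf1: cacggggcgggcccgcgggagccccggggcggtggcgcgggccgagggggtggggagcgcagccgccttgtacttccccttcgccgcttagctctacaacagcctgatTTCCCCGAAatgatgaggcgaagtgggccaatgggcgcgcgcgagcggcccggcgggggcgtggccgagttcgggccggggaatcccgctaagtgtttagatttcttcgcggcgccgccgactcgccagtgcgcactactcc
Irf7: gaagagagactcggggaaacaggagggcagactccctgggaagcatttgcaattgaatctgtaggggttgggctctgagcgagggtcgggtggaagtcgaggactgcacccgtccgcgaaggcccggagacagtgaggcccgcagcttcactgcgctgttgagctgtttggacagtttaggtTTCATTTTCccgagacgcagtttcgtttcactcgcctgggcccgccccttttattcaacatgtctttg
Irf9: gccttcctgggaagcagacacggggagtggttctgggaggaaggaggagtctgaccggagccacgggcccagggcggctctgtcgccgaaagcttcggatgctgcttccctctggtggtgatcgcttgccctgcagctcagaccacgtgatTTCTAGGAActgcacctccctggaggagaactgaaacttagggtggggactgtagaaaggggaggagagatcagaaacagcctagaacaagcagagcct

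The windows are chr7:1286840-1287089 (plus strand), chr10:38417685-38417934 (plus strand), chr1:205800024-205800273 (minus strand) and chr15:33065586-33065835 (plus strand). Irf7 held GAAANNGAA, on the opposite strand, 68 to 60 bases before its start. Irf1 held TTCNNNGAA 142 to 134 bases before its start, and Irf9 held it 99 to 91 bases before. RefSeq promoters were matched for 7 of the 9 genes. Among the others, Ifnar2 held TTCNNNGAA 249 to 241 bases before its start, while Ifnar1 and Ifngr1 had no match to either. Of 33469 rat promoter windows of this length, 8.12% hold GAAANNGAA and 7.67% hold TTCNNNGAA. A match is a match of letters only, and binding was not measured. Whether the cells carry the same bases as these rat windows was not tested.

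**Figure D2:**
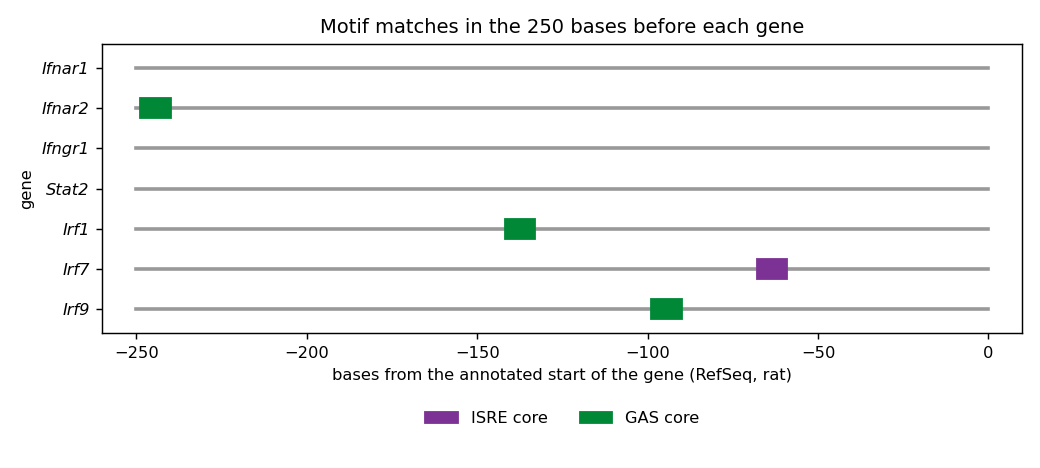
Matches to the 2 motif cores in the 250 bases before the start of 7 genes, with distance from the start in bases on the horizontal axis and 1 gene per line. Purple marks the interferon-stimulated response element core (ISRE) in Irf7, and green the gamma-activated site core (GAS) in Ifnar2, Irf1 and Irf9.

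Irf7 (ENSRNOG00000017414, chromosome 1), a factor that drives transcription of type I interferon genes and amplifies the response, differed most between libraries. It had 242, 269 and 40.1 CPM in siHNRNPD 1 to 3, against 252, 352 and 326 CPM in siNC 1 to 3. The raw counts were 8464, 8911 and 1311, against 7303, 10986 and 11780. siHNRNPD 1 and 2 lay at 78.0% and 86.8% of the siNC mean, beside siNC 1 at 81.2%, so the groups overlapped apart from siHNRNPD 3. The deviation of siHNRNPD 3 from the siNC mean, -2.93 on the log2 CPM scale, ranked 8 from the lowest among the 9176 tested genes that averaged 5 CPM or more. Its fitted log2 change, -0.76, had an SE of 0.51 (edgeR adjusted p = 0.616). Without siHNRNPD 3 it was -0.29 (adjusted p = 0.507).

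Irf9 (ENSRNOG00000019478, chromosome 15), the DNA-binding subunit of ISGF3, had 68.9, 63.1 and 22.4 CPM in siHNRNPD 1 to 3, against 72.2, 79.1 and 68.3 CPM in siNC 1 to 3. siHNRNPD 1 lay within the siNC range, siHNRNPD 2 just below it and siHNRNPD 3 far below it, so the groups overlapped. In siHNRNPD 3 the deviation was -1.70, rank 43 of the same 9176 genes from the lowest. The log2 change was -0.51 with all libraries (SE 0.32, edgeR adjusted p = 0.584) and -0.16 without siHNRNPD 3 (adjusted p = 0.576).

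Stat2 (ENSRNOG00000031081, chromosome 7), the STAT that brings the activation domain to ISGF3, had 291, 290 and 177 CPM in siHNRNPD 1 to 3, against 338, 390 and 379 CPM in siNC 1 to 3. Every siHNRNPD library lay below every siNC library. The log2 value was -0.55 (SE 0.17) and did not pass over all genes in edgeR (adjusted p = 0.313). DESeq2 called it (adjusted p = 0.0186), and so did edgeR with no filter on low counts (adjusted p = 0.0296). Without siHNRNPD 3 the edgeR value was -0.36 (adjusted p = 0.153).

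Irf1 (ENSRNOG00000008144, chromosome 10), a factor that binds response elements in antiviral and antigen presentation genes and is induced by interferon gamma, differed with the least spread of the 4. It had 77.5, 78.0 and 64.1 CPM in siHNRNPD 1 to 3, against 93.1, 104 and 105 CPM in siNC 1 to 3. The groups did not overlap. Means were 73.2 ± 7.86 CPM in siHNRNPD and 101 ± 6.75 CPM in siNC (SD, n = 3 each). Its log2 value of -0.46 (SE 0.091) did not pass in edgeR (adjusted p = 0.133), where the unadjusted p was 5.53e-04. DESeq2 gave an adjusted p of 0.00106 and edgeR with no filter 0.00746. Leaving out each library in turn kept the value between -0.53 and -0.39, with -0.39 (adjusted p = 0.119) without siHNRNPD 3. Stat2 and Irf1 are the 2 of the 9 genes with non-overlapping groups and siHNRNPD lower, against 8.57% of all genes tested.

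**Figure D3:**
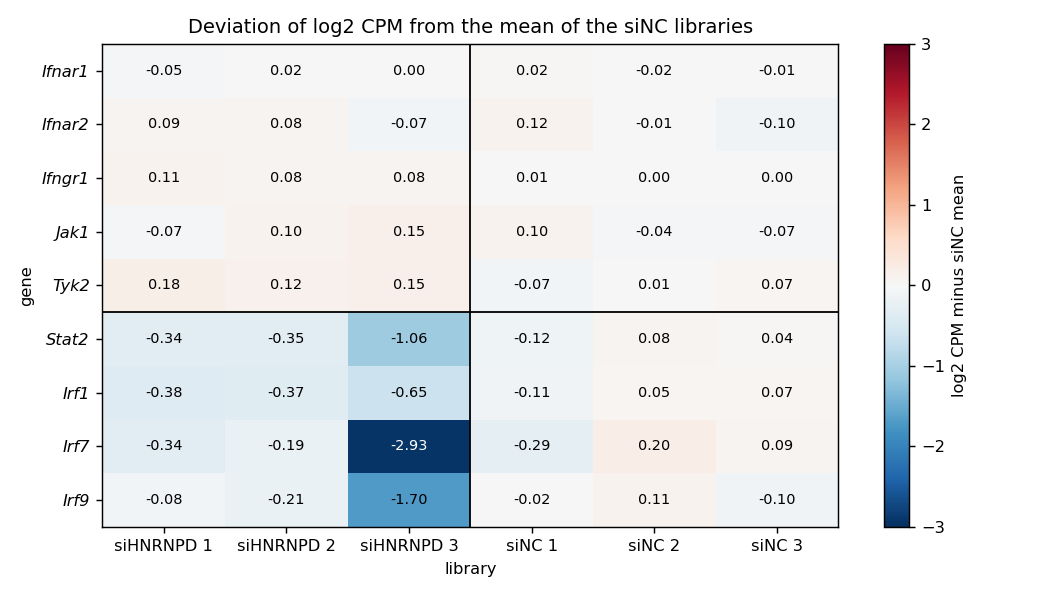
Deviation of log2 CPM from the mean of the siNC libraries, with genes in rows and libraries in columns; blue is lower and red higher, and the printed numbers are the deviations. The receptor and kinase rows stay near 0, while the column siHNRNPD 3 reaches -2.93 for Irf7 and -1.70 for Irf9.

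Set side by side, the 4 transcription factors differed in how evenly the siHNRNPD libraries were lower. In siHNRNPD 1 and 2 the deviations were -0.34 and -0.35 for Stat2, -0.38 and -0.37 for Irf1, -0.34 and -0.19 for Irf7, and -0.08 and -0.21 for Irf9. In siHNRNPD 3 the order changed, with Irf7 lowest, then Irf9, Stat2 and Irf1. The median deviation of the 4 genes was -0.34, -0.28 and -1.38 in siHNRNPD 1 to 3, against -0.12, 0.098 and 0.054 in siNC 1 to 3. For the 5 receptor and kinase genes it was 0.088, 0.077 and 0.082, against 0.024, -0.014 and -0.0083. Over all genes tested these library medians lay between 0.00029 and 0.013. The median fitted log2 change was -0.53 for the 4 transcription factors and 0.063 for the 5 others, beside 0.0054 over all genes tested, and -0.010 over the 9 genes together. Without siHNRNPD 3 the first 2 were -0.32 and 0.070.

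**Figure D4:**
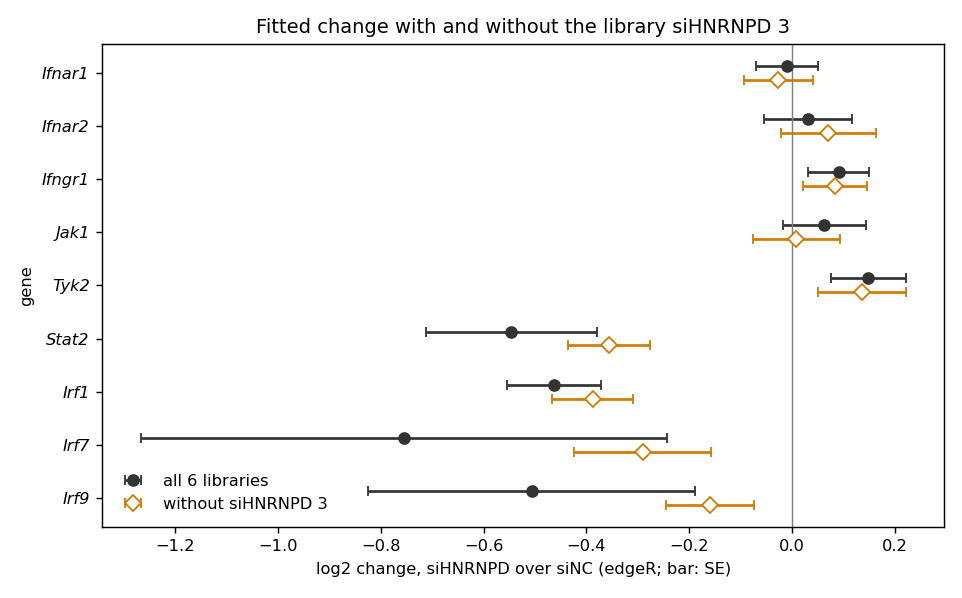
Fitted log2 change, siHNRNPD over siNC (edgeR, bars are the SE), for each gene with all 6 libraries (filled circles) and without siHNRNPD 3 (open diamonds). Irf7 moves to -0.29 and Irf9 to -0.16 without that library, while Irf1 moves to -0.39.

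Levels can be compared between genes only per length, so the authors' FPKM (values scaled to gene length and library size) were used for the order. Alignment to the rat build was not tested gene by gene, so the order is that of the deposited values. In the siNC libraries Irf7 was highest at 134 ± 22.1 FPKM, followed by Stat2 at 78.1 ± 5.80 and Ifngr1 at 52.3 ± 0.84 FPKM (SD, n = 3). Irf1 at 42.0 ± 3.01 and Irf9 at 39.0 ± 2.32 FPKM did not differ beyond their spread, nor did Jak1 at 17.2 ± 1.08 and Ifnar1 at 17.1 ± 0.38 FPKM. Ifnar2 had 12.4 ± 0.87 FPKM, and Tyk2 was lowest at 4.17 ± 0.24 FPKM (SD, n = 3). siHNRNPD 1 and 2 kept the first 3 places, with Irf7 at 105 and 116 FPKM. In siHNRNPD 3 Ifngr1 came first at 57.0 FPKM, then Stat2 at 38.6, Irf1 at 27.5 and Jak1 at 19.6 FPKM. Irf7, at 17.8 FPKM, there stood beside Ifnar1 at 17.6 FPKM, and Irf9, at 12.3 FPKM, beside Ifnar2 at 12.1 FPKM.

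The rest of the pathway was read from lists, in which calls are those of edgeR unless DESeq2 is named. Of 11 interferon ligand genes listed, 2 had a row: Ifnb1, interferon beta, with 2, 4 and 1 counts in siHNRNPD 1 to 3 and 3, 2 and 3 counts in siNC 1 to 3, and Ifne, with 0 to 3 and 0 to 4 counts. Both were under the filter and were not tested, and the other ligands were not analysed here. Among the other receptor chains, 0 of 3 were called. Il10rb, which pairs with the interferon lambda and interleukin-10 receptors, had 60.9 ± 2.22 CPM in siHNRNPD and 70.0 ± 1.93 CPM in siNC (SD, n = 3 each; edgeR adjusted p = 0.323). Its groups did not overlap, with siHNRNPD lower, as in 8.57% of all genes tested. Ifngr2, the signalling chain of the gamma receptor, had a log2 value of -0.047, and Ifnlr1, the lambda receptor chain, one of 0.018.

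Of 7 tested Janus kinases and STATs outside the 9 genes, 0 were called. Jak2, the kinase of Ifngr2, had 59.3 ± 4.01 CPM in siHNRNPD and 66.9 ± 3.07 CPM in siNC (SD, n = 3 each; edgeR adjusted p = 0.436). All its siHNRNPD libraries lay below all siNC libraries, as in 8.57% of all genes tested. Stat3 had a log2 value of -0.14 and Stat6 one of 0.088.

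Of 7 tested IRF factors and IRF2-binding proteins outside the 9 genes, 0 were called. Irf3, which is activated by phosphorylation, had 42.0 ± 2.17 CPM in siHNRNPD and 39.9 ± 2.88 CPM in siNC (SD, n = 3 each). Irf2, a repressor of interferon-responsive genes, had a log2 value of -0.14, and Irf2bp2 one of 0.18. For Irf2 the siHNRNPD libraries all lay below the siNC libraries, as in 8.57% of all genes tested. Irf8 was low, with 1.39 ± 0.067 CPM in siHNRNPD and 1.02 ± 0.076 CPM in siNC (SD, n = 3 each; edgeR adjusted p = 0.443). Its groups did not overlap, with siHNRNPD higher, as in 8.42% of all genes tested.

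Among 18 tested negative regulators 0 were called. Usp18, a protease that removes ISG15 and blocks the Ifnar2 chain, had 114, 103 and 12.9 CPM in siHNRNPD 1 to 3, against 130, 188 and 132 CPM in siNC 1 to 3. It thus shared the low value in siHNRNPD 3, and its log2 value was -0.97 with all libraries (edgeR adjusted p = 0.557) and -0.48 without siHNRNPD 3. Socs2, Cish and Pias3, which restrain cytokine signalling, had log2 values of -0.35, 0.25 and -0.12. The list's median was -0.055. Of the 18, 3 did not overlap between the groups with siHNRNPD lower, Usp18 and Pias3 among them, against 8.57% of all genes tested. Cish was the 1 that did not overlap with siHNRNPD higher, against 8.42% of all genes. Of 7 tested chains of other cytokine receptors that use Jak1 or Tyk2, 0 were called and the median was -0.12. Il6r, the interleukin-6 binding chain, had 11.2 ± 0.72 CPM in siHNRNPD and 14.2 ± 0.34 CPM in siNC (SD, n = 3 each; edgeR adjusted p = 0.285). With siHNRNPD lower, the groups did not overlap for 2 of the 7, Il6r and Il13ra1, against 8.57% of all genes tested. Il13ra1 had only 10 to 23 counts in a library. The groups overlapped for Osmr and Il4r.

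Genes downstream of these factors were read in the same libraries. All 18 tested ISGF3 targets had a log2 change under 0, as did 48.3% of all genes tested, and the median was -0.92, while 15 did not overlap between the groups with siHNRNPD lower, against 8.57% of all genes. By edgeR 0 were called, and 13 were lower at an unadjusted p under 0.05, against 5.2% of all genes. DESeq2 called 1 lower, Ddx58, against 0.934% of the genes it adjusted. Their median deviation was -0.62, -0.46 and -2.12 in siHNRNPD 1 to 3, against -0.16, 0.22 and -0.065 in siNC 1 to 3. Without siHNRNPD 3 the median was -0.59 and 17 were under 0, as were 52.7% of all genes. In that set 15 did not overlap, against 13.3% of all genes tested without that library. Dropping a siHNRNPD library cannot make separate groups overlap, so this count could not fall. Cmpk2, Ifit3, Ifit2 and Ddx58, which act in antiviral defence, had log2 values of -1.15, -0.94, -1.11 and -0.67.

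The 10 tested targets of interferon gamma signalling and Irf1 also lay under 0, the median being -0.74, and edgeR called 2 lower, Gbp2 and Gbp5, against 0.0571% of all genes. Gbp2, an interferon-induced guanylate-binding protein, had 27.5, 31.7 and 21.4 CPM in siHNRNPD 1 to 3, against 58.9, 64.5 and 59.8 CPM in siNC 1 to 3. All 3 siHNRNPD libraries were low. It fell by 1.19 on the log2 scale (edgeR adjusted p = 0.0426), and Gbp5, of the same family, fell by 0.94 (adjusted p = 0.0445). Leaving out siHNRNPD 2 kept both calls, and leaving out siHNRNPD 3 kept that of Gbp2 and gave an adjusted p of 0.0542 for Gbp5. Leaving out any other library lost both, with adjusted p of 0.0508 to 0.319. Cxcl10 and Cxcl9, chemokines induced by interferon gamma, had log2 values of -1.04 and -1.31 and were not called by edgeR (adjusted p = 0.0615 and 0.295). DESeq2 called 4 of the list lower, Gbp2, Gbp5, Cxcl10 and Psmb9, against 0.934% of the genes it adjusted. Without siHNRNPD 3 the median was -0.61 and 8 of the 10 were under 0, against 52.7% of all genes. In that fit edgeR called 1, Gbp2, against 0.113% of all genes in either direction. This list's median deviation was -0.65, -0.42 and -1.16 in siHNRNPD 1 to 3, against -0.22, 0.097 and 0.090 in siNC 1 to 3. Gbp genes resemble each other, and how the counter treated shared reads is unknown.

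**Figure D5:**
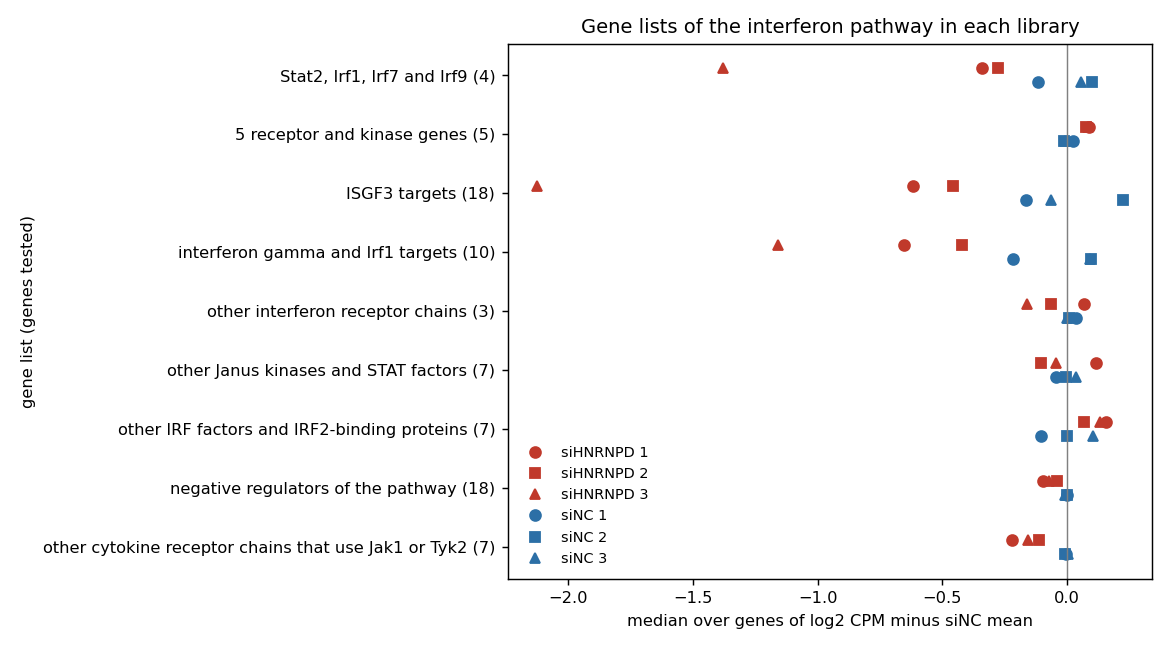
Median over the genes of a list of log2 CPM minus the siNC mean (horizontal axis), for each library; red marks siHNRNPD and blue siNC, and symbols mark replicate numbers. The point of siHNRNPD 3 lies at -2.12 for ISGF3 targets, -1.16 for the interferon gamma and Irf1 targets and -1.38 for Stat2, Irf1, Irf7 and Irf9, while for the other rows drawn all 6 libraries stay between -0.22 and 0.15.

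Likeness of profile over the 6 libraries was measured by the root mean square difference of the deviations on the log2 scale. The most similar genes were sought among 9162 others that averaged 5 CPM or more over the 6 libraries. For Stat2 these were Psmb9, Il18bp and Mitd1, at differences of 0.052, 0.062 and 0.089. For Irf1 they were Rsph3, Slc11a1 and C1r, at 0.051, 0.059 and 0.071. Irf9 had Helz2, Plac8 and Parp9 nearest, at 0.067, 0.079 and 0.10. Irf7 had Lgals9, RT1-T24-4 and Oas1k nearest, at larger differences of 0.15, 0.16 and 0.23. The differences are not scaled to how much a gene varied, and Irf7 varied most. RT1-T24-4 and Oas1k belong to families of near copies. In siHNRNPD 3 the 3 neighbours of Irf7 deviated by -2.73, -2.68 and -2.61, beside -2.93 for Irf7. The nearest genes of Irf1 had -0.76 to -0.56 there. That library entered the difference by which neighbours were picked, so values near those of Irf7 and Irf1 follow from the choice.

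Markers of other cells were read in the same libraries. The summed level of the 9 leukocyte markers with a row was 69.7 to 72.7 CPM in siHNRNPD and 61.4 to 66.3 CPM in siNC, nearly all of it Cd14, and Adgre1, Csf1r and Cd3e had 0 to 3 counts in a library. The 6 fibroblast markers summed to 2381 to 2799 CPM in siHNRNPD and 1971 to 2357 CPM in siNC, mostly Col1a1. Col1a1 and Cd14 had log2 values of 0.31 and 0.15 and were not called (edgeR adjusted p = 0.322 and 0.453). For each of them all siHNRNPD libraries lay above all siNC libraries, as in 8.42% of all genes tested. The 5 supporting cell markers with a row summed to 77.6 to 101 CPM in siHNRNPD and 88.7 to 104 CPM in siNC, mostly Cdkn1b. Of the 4 tested, Sox9 had 1.93 ± 0.14 CPM in siHNRNPD and 1.36 ± 0.017 CPM in siNC (SD, n = 3 each; edgeR adjusted p = 0.341). Fgfr3 had 3.24 ± 0.36 CPM in siHNRNPD and 2.34 ± 0.25 CPM in siNC (SD, n = 3 each; edgeR adjusted p = 0.347). For both, all siHNRNPD libraries lay above all siNC libraries, as in 8.42% of all genes tested, and neither was called. Epithelial markers, at a few counts in a library, summed to 0.092 to 0.21 CPM in siHNRNPD and 0.16 to 0.19 CPM in siNC. Their part in the results was not tested.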

How the data were processed

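RNA levels come from 3 siHNRNPD and 3 siNC libraries. The authors aligned reads with TopHat2 and name the build mRatBN7.2, per the submitters' processing notes. The version of TopHat2, the counter, its strand setting and the annotation were not given in the sources used here. Overlapping genes on either strand may therefore share reads. The deposited tables hold whole-number read counts for 18718 genes, not normalized, and FPKM computed by the authors for 18628 genes. Columns were matched to samples by siRNA and replicate number, and 0 were left over.

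The counts went into edgeR 4.0.16 under R 4.3.3 (TMM scaling, filterByExpr, quasi-likelihood test on group alone, Benjamini-Hochberg adjustment over 12268 genes, calls at an adjusted p under 0.05). CPM use TMM library sizes, and deviations use log2 CPM with a prior count of 2. The script was tested on simulated data. Alternatives were size factors (RLE), no filter, DESeq2 1.42.0, a replicate block, fits without each library, and limma 3.58.1 with log2(FPKM + 1), with and without a minimum mean FPKM of 1, or with log2(FPKM + 0.1). Counts of the lists without siHNRNPD 3 were added after seeing the data. The 9 genes and the lists were chosen with earlier results of these data known. Named genes were the 9, Hnrnpd, and in each list the called genes and the 4 with the smallest p. Similar profiles took 3 genes each. Ligands and cell markers are named beyond that rule. 1 list entry, Il6ra, was matched through a synonym. A gene of the pathway is not reported here. No 2 libraries agreed within sampling noise, and some were closer across the groups than within them. By the chi-square of counts per degree of freedom, siHNRNPD 2 differed from siNC 2 by 15.6 and from siHNRNPD 1 by 26.1. The closest pair was siNC 1 and siNC 2, at 12.6.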

Additional observations from a re-analysis of the deposited data

How the results depend on the processing

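By edgeR 0 of the 9 genes were called higher or lower in every fit that left out 1 library (0 to 0). DESeq2 and edgeR with no filter on low counts each called 2 lower, Irf1 and Stat2, while limma on FPKM called 0. Over all genes, edgeR called 10, against 162 with DESeq2, 147 with no filter, 0 with the replicate block, 5 on log2(FPKM + 0.1), 0 on log2(FPKM + 1) with or without the minimum, and 0 to 14 when a library was left out. At an unadjusted p under 0.05 the block gave 1062 genes and log2(FPKM + 1) gave 1157 with the minimum and 1604 without. The causes were not tested. Of 117 log2 values of the 9 genes under alternatives, 108 kept direction and side of the threshold. Ifnar1, at -0.010, turned to 0.0057 on log2(FPKM + 0.1), 0.0054 on log2(FPKM + 1), 0.0054 with no minimum and 0.0093 without siHNRNPD 1, and Ifnar2, at 0.031, to -0.019 without siNC 3. Over the fits without 1 library Ifnar1 ran from -0.027 to 0.0093 and Ifnar2 from -0.019 to 0.079. For Irf7 the log2 value ran from -1.14 to -0.29 and for Irf9 from -0.77 to -0.16 over the fits without 1 library, and the replicate block gave -1.08 for Irf7. Same-numbered libraries did not all deviate together: the correlations of their deviations across genes were -0.26, 0.14 and 0.10. siHNRNPD 3 correlated best with its own number, while siHNRNPD 1 and 2 did not. With 3 libraries in a group these correlations cannot settle pairing. The numbers were not taken as pairs, and the replicate block is given as an alternative. Ifnb1 and Ifne, with at most 4 counts in a library, could not be tested at this depth, while the 9 genes had at least 683.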
